A study of Mus musculus with 12 samples.

Results

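The insulin-like growth factor (IGF) axis was followed through the neonatal mouse liver with 9 genes, taken by symbol from the gene list of the deposited matrices. All 9 were found, among 32285 genes. They were the ligands Igf1 and Igf2, the receptors Igf1r and Ghr (growth hormone receptor), the binding protein genes Igfbp1, Igfbp2, Igfbp3 and Igfbp4, and Igfals, which encodes the acid-labile subunit. IGF1 carries much of the growth-promoting action of growth hormone, and the liver is known as the main source of the circulating hormone, which is released when growth hormone binds its receptor on hepatocytes. In blood, most IGF is held in complexes of a binding protein, chiefly IGFBP3, with the acid-labile subunit, while IGFBP1 is a short-lived carrier whose gene is known to be repressed by insulin and raised by fasting and low oxygen. IGF1R is the tyrosine kinase receptor through which both ligands act on target cells, and hepatocytes themselves are known to carry little of it.

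Single-cell RNA was measured in the livers of 12 C57BL/6 pups collected on P11 (postnatal day 11), with 1 library per mouse. The 6 control pups were naive animals that received needle sticks without bleeding. The 6 anemic pups had phlebotomy-induced anemia, made by taking 20 µL of blood per g of body weight from the facial vein 5 times, on P2, P4, P6, P8 and P10. Pups of both sexes were assigned to the groups at random, and no genetic change was involved. The litter of each pup was not among the sample labels used, and litter was not modelled.

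After filtering, 206146 of 207537 barcodes were kept as cells (98075 in controls, 108071 after phlebotomy), and libraries held 45751640 to 74344118 unique molecular identifiers (UMIs, counted RNA molecules) per mouse. Clusters were named from marker lists, and 40 of them fell into 14 classes with 185597 cells, called by the marker type with the ending "-like". The other 21 clusters, with 11.1% of control and 8.98% of anemic cells, stayed unnamed. A level in CPM is the number of UMIs of a gene per 1000000 UMIs summed over a class in 1 mouse. Levels were compared between classes or groups, not between genes. The libraries of anemic mice 2 and 3 stood apart. Over all kept cells, their summed level of 12 hepatocyte genes was 3394 and 3698 CPM, against 9276 to 16322 CPM in the other 10 mice, and 66.9% and 40.5% of their macrophage-like cells fell into a cluster led by Serpinb2 and Prg4, against 2.47 to 15.2% in the others. Results without both mice are given for the classes described below where a call changed.

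Genes are placed here by GRCm38 coordinates of the GENCODE M21 annotation. Igf1 lies on the plus strand at chr10:87858265-87937042 and overlaps the antisense gene Igf1os. Igf2 lies on the minus strand at chr7:142650766-142666816 and overlaps the protein-coding gene Gm49394 and Mir483 on its own strand and Igf2os on the other, so that its counts are uncertain to that extent. Igfbp1, at chr11:7197782-7202546 on the plus strand, and Igfbp3, at chr11:7206086-7213923 on the minus strand, are 3.54 kb apart. Igfals is at chr17:24865997-24882010, Ghr at chr15:3317760-3583492, Igf1r at chr7:67952827-68233668, Igfbp2 at chr1:72824503-72852474 and Igfbp4 at chr11:99041244-99054392. Introns make up 60.1 to 96.6% of the 9 genes, the most in Ghr, Igf1r (94.0%), Igfbp2 (93.4%) and Igf1 (87.4%), so whether intronic reads were counted bears on their levels. That setting is not given in the sources used here.

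The promoters of Igfbp1 and Igfals are shown because Igfbp1 was the 1 member called higher in hepatocyte-like cells and Igfals had the lowest adjusted p there. The windows hold 250 bases from RefSeq (GRCm38.p6), 5′ to 3′ on the plus strand, chr11:7197537-7197786 for Igfbp1 and chr17:24877594-24877843 and chr17:24877981-24878230 for the 2 of 3 Igfals starts with a match. Capitals mark the letters searched for on both strands, the insulin response core CAAAACA in Igfbp1 and the STAT-type spacing TTCNNNGAA in Igfals.
Igfbp1: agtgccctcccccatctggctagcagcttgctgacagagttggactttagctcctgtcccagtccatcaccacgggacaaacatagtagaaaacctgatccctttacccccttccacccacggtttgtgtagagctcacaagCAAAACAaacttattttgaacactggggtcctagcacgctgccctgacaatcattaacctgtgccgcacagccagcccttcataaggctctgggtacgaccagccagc
Igfals, first window: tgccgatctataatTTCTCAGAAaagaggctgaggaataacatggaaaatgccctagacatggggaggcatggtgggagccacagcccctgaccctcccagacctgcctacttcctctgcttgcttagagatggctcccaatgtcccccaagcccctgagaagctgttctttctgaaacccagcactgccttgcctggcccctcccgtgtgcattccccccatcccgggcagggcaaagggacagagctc
Igfals, second window: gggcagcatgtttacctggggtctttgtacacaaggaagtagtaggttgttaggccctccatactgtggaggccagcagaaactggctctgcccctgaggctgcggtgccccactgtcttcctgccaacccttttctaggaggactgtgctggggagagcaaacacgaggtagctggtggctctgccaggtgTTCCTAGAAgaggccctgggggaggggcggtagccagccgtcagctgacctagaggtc
CAAAACA started 108 bases before the Igfbp1 start and was in 5.56% of 32851 windows of this length. TTCNNNGAA started 236 and 58 bases before the 2 Igfals starts and was in 7.02% of windows. The hypoxia response core ACGTG was in 16.6% of windows and matched Igf2 and Igfbp2 among the 9 genes. These matches describe letters in a window, and no binding was measured.

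Hepatocyte-like cells held the highest level of both ligands. Igf1 stood at 755 ± 114 CPM there (SD, n = 12 mice) and at 558 ± 129 CPM in macrophage-like cells, and it was higher in hepatocyte-like cells in 12 of 12 mice (exact two-sided sign-flip test, adjusted p = 0.00159). Cholangiocyte-like (181 ± 39.97 CPM) and stellate-like cells (178 ± 61.2 CPM) followed, and this pair did not differ beyond their spread (exact sign-flip test, adjusted p = 0.703). Of the cells in this pair of classes, 82.3% and 65.2% were called doublets and kept. The remaining 10 classes had mean Igf1 levels of 10.6 to 38.9 CPM. Igf2, the fetal growth factor, stood at 993 ± 260 CPM in hepatocyte-like and 88.8 ± 48.8 CPM in stellate-like cells, and at 10.5 to 27.4 CPM elsewhere.

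The receptors had different target classes. Igf1r was highest in neutrophil-like cells (667 ± 124 CPM), followed by basophil/mast-like (439 ± 119 CPM), stellate-like (403 ± 37.0 CPM) and endothelial-like cells (335 ± 51.9 CPM). Basophil/mast-like and stellate-like cells did not differ beyond their spread (exact sign-flip test, adjusted p = 0.505). Hepatocyte-like cells had 8.65 CPM of Igf1r and NK-like cells 4.53 CPM, the lowest levels of the 14 classes. Ghr, which binds growth hormone, was highest in hepatocyte-like cells at 765 ± 323 CPM, then 266 ± 48.4 CPM in stellate-like, 153 ± 33.0 CPM in endothelial-like and 92.4 ± 29.8 CPM in cholangiocyte-like cells, and each of these neighbours differed (exact sign-flip test, adjusted p = 0.00317, 0.00212 and 0.00212). The hepatocyte-like level was uneven. At a coarser clustering, the cluster led by Apob and Cps1 had 1628 CPM of Ghr over all mice. The other hepatocyte-like clusters had 206 and 180 CPM, and the stellate-like cluster had 197 CPM.

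**Figure D1:**
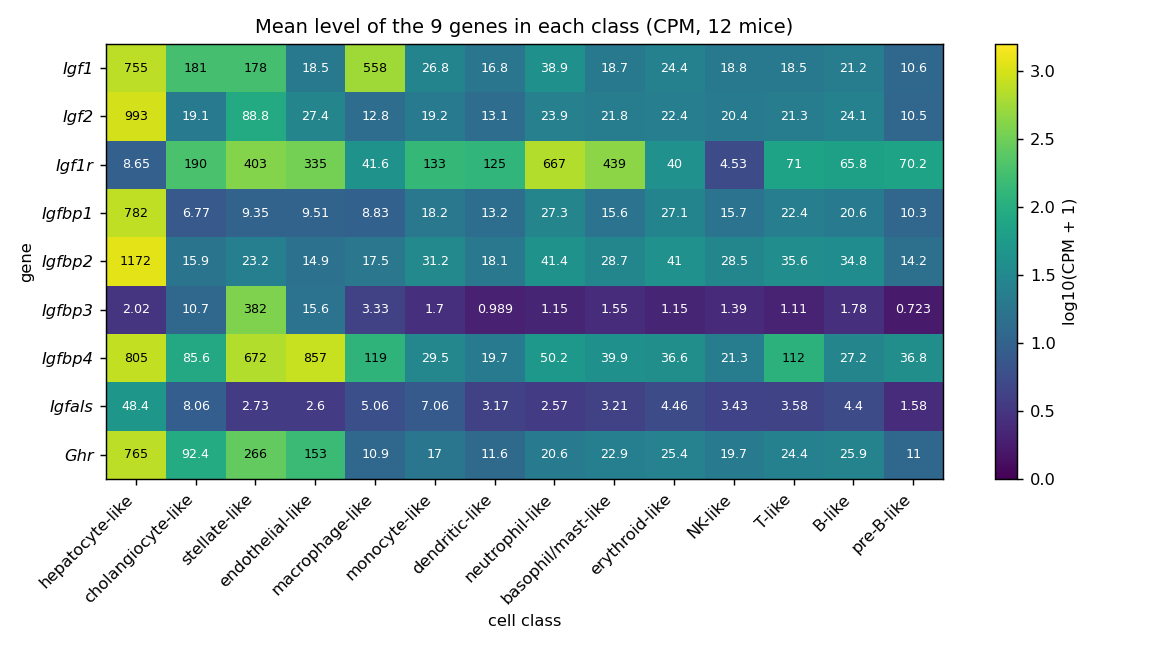
Mean level of the 9 genes (rows) in the 14 cell classes (columns) over 12 mice, in CPM (numbers in the cells), with colour on a log10(CPM + 1) scale. Both ligands peak in hepatocyte-like cells, Igf1r peaks in neutrophil-like cells at 667 CPM, and Igfbp3 peaks in stellate-like cells at 382 CPM.

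The binding protein genes were divided among 3 classes. Igfbp1 (782 ± 328 CPM), Igfbp2 (1172 ± 433 CPM) and Igfals (48.4 ± 23.4 CPM) were highest in hepatocyte-like cells. Igfbp3, the main circulating carrier, was highest in stellate-like cells at 382 ± 132 CPM, with 15.6 ± 16.0 CPM in endothelial-like cells and 2.02 CPM in hepatocyte-like cells. Igfbp4, a carrier that is cleaved by the protease PAPP-A, stood at 857 ± 87.9 CPM in endothelial-like, 805 ± 159 CPM in hepatocyte-like and 672 ± 86.0 CPM in stellate-like cells. The first pair did not differ by the threshold (exact sign-flip test, adjusted p = 0.0889) and the second did (adjusted p = 0.00846).

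Hepatocyte RNA was found in every class, so each level was set beside the level that 12 hepatocyte genes predicted from their ratio to the member in hepatocyte-like cells of the same mouse. A level was counted as above background when all 12 mice exceeded the prediction and the mean was at least 3 times it. Igf1 was 37.0 times the prediction in macrophage-like cells, 16.5 times in stellate-like cells and 5.86 times in cholangiocyte-like cells. Ghr was above background in stellate-like (23.3 times), endothelial-like (14.5 times) and cholangiocyte-like cells (3.03 times), and Igf2 in stellate-like cells only (6.23 times) among the 13 class means. In controls alone, Ghr in cholangiocyte-like cells was 73.3 CPM against 39.2 CPM predicted, which is less than 3 times. Within the endothelial-like class, the cluster led by Ccl21a and Mecom had 99.8 CPM of Igf2 with 0.172% hepatocyte RNA, against 10.2 to 47.6 CPM in the other 4 clusters. Igfbp4 was above background in endothelial-like (81.3 times), stellate-like (57.5 times), macrophage-like (7.36 times), T-like (4.98 times) and pre-B-like cells (3.40 times). Igfals was above it in macrophage-like (4.94 times), monocyte-like (4.73 times), endothelial-like (3.78 times), dendritic-like (3.69 times) and stellate-like cells (3.65 times). Its mean levels in these classes were low, at 2.60 to 7.06 CPM. In controls alone, endothelial-, dendritic- and stellate-like cells had 3.01, 3.18 and 2.99 CPM of Igfals. The predictions there were 1.13, 1.37 and 1.18 CPM, so these means were less than 3 times them. In anemic mice the means were 2.19, 3.15 and 2.47 CPM, against predictions of 0.251, 0.346 and 0.314 CPM. For Igf1r the prediction was 0.107 to 0.360 CPM, since hepatocyte-like cells held little of it, so that this comparison says nothing of Igf1r. The same holds for Igfbp3, with predictions of 0.0287 to 0.0833 CPM. RNA released by other classes, among them those rich in Igf1r, Igfbp3, Igfbp4 or Igf1, was not modelled. Igfbp1 and Igfbp2 stood at 0.206 to 1.28 and 0.338 to 1.36 times the prediction in the 13 other named classes. The unnamed clusters were not compared with it, and one of them, led by Igfbp5 and Msln, had 101 CPM of Igfbp2 with 0.202% hepatocyte RNA.

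**Figure D2:**
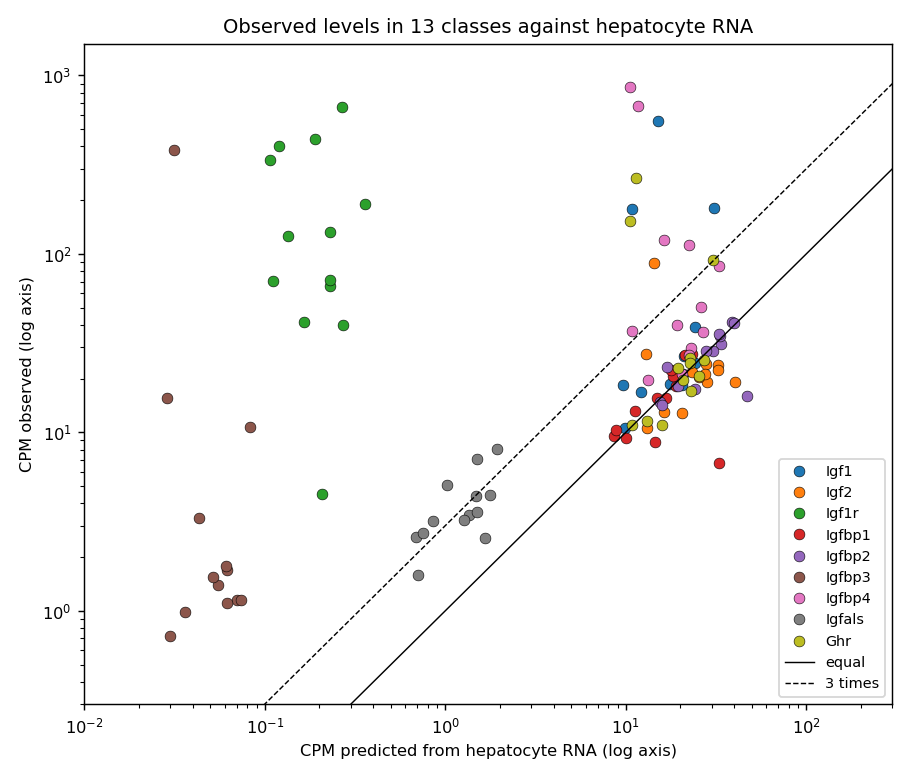
Observed mean CPM of each gene in each of the 13 other classes (vertical, log axis) against the CPM predicted from hepatocyte RNA (horizontal, log axis), 1 point per gene and class, with lines at equality and at 3 times the prediction. Igfbp1 and Igfbp2 lie near or below the line of equality (0.206 to 1.28 and 0.338 to 1.36 times the prediction, both lowest in cholangiocyte-like cells). In contrast, Igf1 in macrophage-like cells stands at 37.0 times its prediction.

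By the number of molecules, the classes contributed differently than by level. Macrophage-like cells gave 51.0 ± 7.20% of all Igf1 UMIs in controls and 48.0 ± 13.1% after phlebotomy (SD, n = 6 per group), and hepatocyte-like cells 22.3 ± 5.55% and 23.9 ± 8.56%. Endothelial-like cells gave 37.6 ± 3.74% and 33.9 ± 11.2% of Igf1r UMIs. These shares follow the number of cells recovered from a dissociated liver and the UMIs per cell as well as the level in CPM. The median was 1186.5 UMIs per cell in hepatocyte-like and 4844 in macrophage-like cells.

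In hepatocyte-like cells, anemia moved 4 of the 9 genes past the threshold, where all 9 passed the count filter. Igfbp1 rose, and Igfals, Ghr and Igfbp4 fell. In the same comparison 45.9% of 11446 genes were called at an adjusted p under 0.05 (edgeR), so the share of members called was near that of all genes. The median log2 fold change was -0.33 over the 9 members and -0.06 over all genes.

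Igfbp1, the insulin-repressed carrier, had 340, 483 and 1041 CPM (lowest, median, highest) in control hepatocyte-like cells and 832, 977 and 1264 CPM in anemic ones. All anemic mice were above 5 of the 6 control mice, and control mouse 6, at 1041 CPM, overlapped with the anemic group. The fitted log2 fold change was 1.03 ± 0.239 (SE; edgeR, adjusted p = 0.00219). It was called in 3 of the 5 hepatocyte-like clusters fitted alone, by 0.90, 1.19 and 1.43, and had values of 0.53 and 0.29 in the other pair.

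Igfals, which encodes the subunit that stabilises the circulating complex, had 58.2, 71.1 and 82.7 CPM in controls and 16.9, 28.0 and 33.4 CPM in anemic hepatocyte-like cells. Every anemic mouse was below every control mouse. The log2 fold change was -1.17 ± 0.144 (edgeR, adjusted p = 9.4e-06), and -0.63, -0.85 and -1.15 in the 3 clusters where it could be tested, each called. The clusters led by Fabp1 and Uox and by Gnmt and Uox, where it could not be tested, went from 15.2% to 26.9% and from 6.56% to 12.0% of the class. The part of this shift in the class-wide value was not tested.

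Ghr had 919, 1039 and 1235 CPM in controls and 267, 475 and 635 CPM in anemic hepatocyte-like cells, again with no overlap. The fitted log2 fold change was -1.002 ± 0.171 (edgeR, adjusted p = 1.8e-04). Within single clusters it was smaller, from -0.04 to -0.38, and not called in any of the 5. Fewer of all genes were called there, 162 to 556 in a cluster against 5255 in the class. The cluster richest in Ghr, led by Apob and Cps1 and with 1811 CPM of Ghr in control mice, held 28.3 ± 3.25% of control and 12.5 ± 2.86% of anemic hepatocyte-like cells. Its median mitochondrial share was 16.4% per cell, against 0.944 to 2.25% in the other 4 hepatocyte-like clusters, and 27.2% of its cells were called doublets. With cells of at most 10% mitochondrial UMIs, the class-wide log2 fold change of Ghr was -0.60 (edgeR, adjusted p = 0.00933). Clusters led by Fabp1 and Uox and by Gnmt and Uox went from 15.2% to 26.9% and from 6.56% to 12.0%. The part of this mixture in the class-wide value was not tested beyond these fits.

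Igfbp4 had 851, 901 and 1089 CPM in controls and 568, 701 and 746 CPM in anemic hepatocyte-like cells, with no overlap. Its log2 fold change was -0.33 ± 0.105 (edgeR, adjusted p = 0.0151), and -0.16 (adjusted p = 0.151) without anemic mice 2 and 3. In single clusters it was -0.26 to 0.41 and not called in any of the 5.

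The ligands were not called in hepatocyte-like cells. Igf1 had 732, 799 and 989 CPM in controls and 517, 716 and 746 CPM in anemic mice, overlapping in a narrow range. Its log2 fold change was -0.14 ± 0.111 (edgeR, adjusted p = 0.310), and 0.0043 without anemic mice 2 and 3. Igf2 had a fitted log2 fold change of -0.18 ± 0.210 (adjusted p = 0.506), with 962 to 1221 CPM in controls and a wider 455 to 1272 CPM in anemic mice. Igfbp2 had 959 to 2016 CPM in controls and 405 to 1229 CPM in anemic mice, with a log2 fold change of -0.53 ± 0.242 (edgeR, adjusted p = 0.0826). Igf1r and Igfbp3, both sparse here, had -0.18 (adjusted p = 0.538) and -0.53 (adjusted p = 0.337).

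Erythroid RNA moved with these results. The summed level of 5 erythroid genes in hepatocyte-like cells was 1777 to 8902 CPM in controls and 8383 to 29022 CPM in anemic mice, and that of the 12 hepatocyte genes 156951 to 176561 CPM and 122935 to 171556 CPM. CPM is a share of all UMIs, and without TMM scaling the median of all genes in this class shifted by -0.20 on the log2 scale and 26.4% rather than 47.0% of calls were rises. The part of either in the results was not tested.

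**Figure D3:**
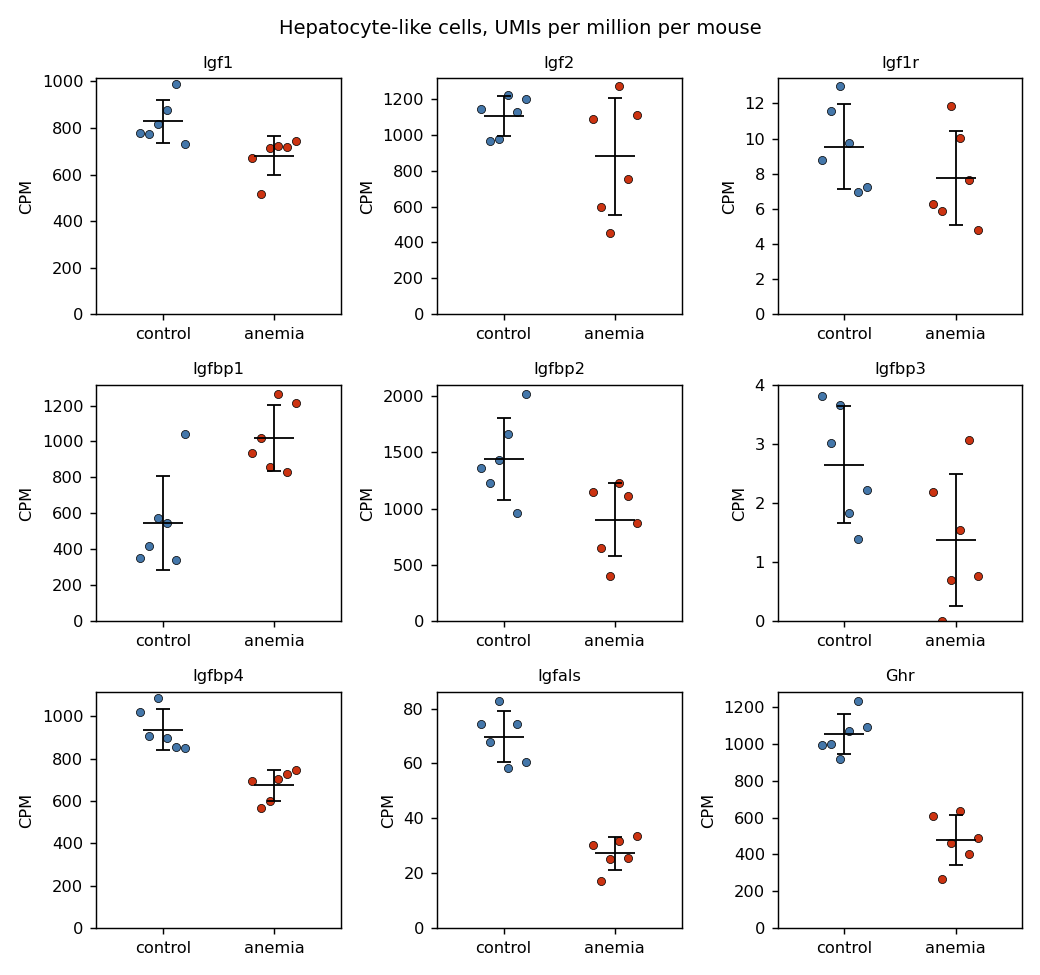
CPM of the 9 genes in hepatocyte-like cells, 1 point per mouse (6 control, 6 anemic), with the mean and SD, each panel starting at 0. Igfals, Ghr and Igfbp4 show no overlap between the groups, while 1 control mouse at 1041 CPM lies among the anemic mice for Igfbp1.

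In stellate-like cells, all 9 genes were tested, Igf1 and Ghr rose and Igfbp3 fell. The 3 members called stood beside 13.3% of 15575 genes called in this class (edgeR), with a median log2 fold change of 0.20 over the members and 0.00 over all genes. Of these cells, 65.2% were called doublets and kept, and the class joined a cluster led by Ank3 and Colec11 with one led by the matrix genes Mfap4 and Col1a1, which fibroblasts also express.

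Igf1 in stellate-like cells had 106, 131 and 151 CPM in controls and 190, 211 and 309 CPM in anemic mice. The groups did not overlap. The log2 fold change was 0.92 ± 0.129 (edgeR, adjusted p = 4.7e-04). The Mfap4-led cluster, with 303 CPM of Igf1 in control mice against 43.4 CPM in the Colec11-led one, held 45.2 ± 9.08% of control and 72.5 ± 8.84% of anemic stellate-like cells. Within these clusters Igf1 had log2 fold changes of 0.27 and 0.32 and was not called, nor was it at the coarser clustering, where the Mfap4-led cells were not in the class (0.34, adjusted p = 0.254). Of all genes, 33 of 13546 were called in the Mfap4-led and 877 of 13627 in the Colec11-led cluster. Over the class it was 2074 of 15575.

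Igfbp3 had 393, 515 and 557 CPM in controls and 169, 292 and 322 CPM in anemic stellate-like cells, without overlap, and a log2 fold change of -0.80 ± 0.137 (edgeR, adjusted p = 0.00164). The fall was in the Colec11-led cluster, with a log2 fold change of -1.14 ± 0.164 (adjusted p = 1.9e-04), while the Mfap4-led cluster had 0.07 ± 0.127 (adjusted p = 0.936). The difference between the clusters was not tested. Ghr had 205, 219 and 260 CPM in controls and 282, 293 and 344 CPM in anemic stellate-like cells, also without overlap, with a log2 fold change of 0.52 ± 0.0877 (edgeR, adjusted p = 0.00146) and values of 0.32 and 0.25 within the clusters, neither called. At the coarser clustering Ghr was 0.33 (adjusted p = 0.0909). Igfbp1 had 0.88 (adjusted p = 0.122), and 1.09 (adjusted p = 0.0409) without anemic mice 2 and 3. Its level in this class was at the hepatocyte-RNA background, at 0.938 times the prediction. Igf2 had a fitted log2 fold change of 0.80 ± 0.269 (adjusted p = 0.0630), Igf1r 0.10 ± 0.0911 (adjusted p = 0.540) and Igfbp4 -0.12 ± 0.0922 (adjusted p = 0.436).

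In endothelial-like cells, all 9 genes were tested and Ghr and Igfbp3 rose, beside 18.4% of 16731 genes called (edgeR). Ghr had 105, 128 and 157 CPM in controls and 140, 184 and 201 CPM in anemic mice. The highest control mouse lay above the lowest anemic mouse. The fitted log2 fold change was 0.58 ± 0.104 (edgeR, adjusted p = 0.00197), and 0.53 and 0.62 in the clusters led by Dnase1l3 and Clec4g and by Fgf23 and Adam23, both called. In the other 3 endothelial-like clusters it was 0.27, 0.52 and -0.20 and not called (adjusted p = 0.351, 0.0841 and 0.628). Over all genes, 211 of 12565, 1076 of 12047 and 1309 of 6100 were called in these. The first pair of clusters held 51.7% and 21.2% of control and 24.0% and 40.8% of anemic endothelial-like cells.

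Igfbp3 had 5.42, 7.17 and 18.1 CPM in controls and 7.52, 13.99 and 63.8 CPM in anemic endothelial-like cells, and the groups overlapped. The log2 fold change was 1.503 ± 0.454 (edgeR, adjusted p = 0.0330). It was lost when anemic mouse 5, the highest, was left out (0.84, adjusted p = 0.0714), without control mouse 1, 2, 4, 5 or 6, with sex as a covariate (1.31, adjusted p = 0.0953) and with the replicate number as a block (1.29, adjusted p = 0.0718). Within clusters it was 3.34, 1.74 and 2.32 in the Dnase1l3-led, Fgf23-led and Sdk1-led clusters, each called, and 0.18 in the cluster led by Ccl21a and Mecom, which had the most Igfbp3 in control mice (39.9 CPM). That last cluster went from 9.46% of control to 16.1% of anemic endothelial-like cells. The part of this shift in the class-wide Igfbp3 value was not tested. Igfbp4 had 855 to 1070 CPM in controls and 723 to 823 CPM in anemic mice with no overlap on the CPM scale, but its log2 fold change after TMM scaling was -0.10 ± 0.0731 (edgeR, adjusted p = 0.342). Igf1r had a fitted log2 fold change of 0.22 ± 0.114 (adjusted p = 0.193). In the endothelial-like cluster led by Fabp4 and Dnase1l3, whose cells had a median of 785 UMIs, Igf1r fell by 0.80 on the log2 scale (edgeR, adjusted p = 0.00407) and Igfbp1 rose by 1.21 (adjusted p = 0.0243). In that cluster 1309 of 6100 genes were called. Over the endothelial-like class, Igfbp1 was at the hepatocyte-RNA background, at 1.10 times the prediction.

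In macrophage-like cells, the class with most Igf1 molecules, Igf1 had 567, 613 and 662 CPM in controls and 225, 543 and 687 CPM in anemic mice. Anemic mice 2 and 3 were the lowest, and the rest lay near the control range. The fitted log2 fold change was -0.26 ± 0.185 (edgeR, adjusted p = 0.427) and -0.04 without both mice. In the Serpinb2-led cluster that held most cells of mouse 2, Igf1 was 264 CPM in controls and 268 CPM in anemic mice, against 631 and 566 CPM in the Clec4f-led cluster. The 1 member called of 9 tested was Igfbp3, beside 4.1% of 14464 genes called, with 3.09, 5.01 and 5.93 CPM in controls and 0.876, 2.07 and 3.49 CPM in anemic mice and a log2 fold change of -1.23 ± 0.295 (edgeR, adjusted p = 0.0355). That call was lost without anemic mice 2 and 3 (-0.84, adjusted p = 0.0755), without the Serpinb2-led cluster (-1.01, adjusted p = 0.0663), in cells with less hepatocyte RNA (-1.15, adjusted p = 0.0618), in the joint voom model (-0.86, adjusted p = 0.234), and without anemic mouse 3 or control mouse 1, 2, 3, 5 or 6. In the Clec4f-led cluster alone Igfbp3 was called (-1.12, adjusted p = 0.0369). That cluster held 0.829% of the macrophage-like cells of anemic mouse 2. Mean Igfbp3 over 12 mice was 3.33 CPM in macrophage-like and 382 CPM in stellate-like cells, and the part of stellate-like RNA was not tested. Without anemic mice 2 and 3, Igf1r rose by 0.66 on the log2 scale (edgeR, adjusted p = 0.00369), against 0.44 (adjusted p = 0.141) with them.

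**Figure D4:**
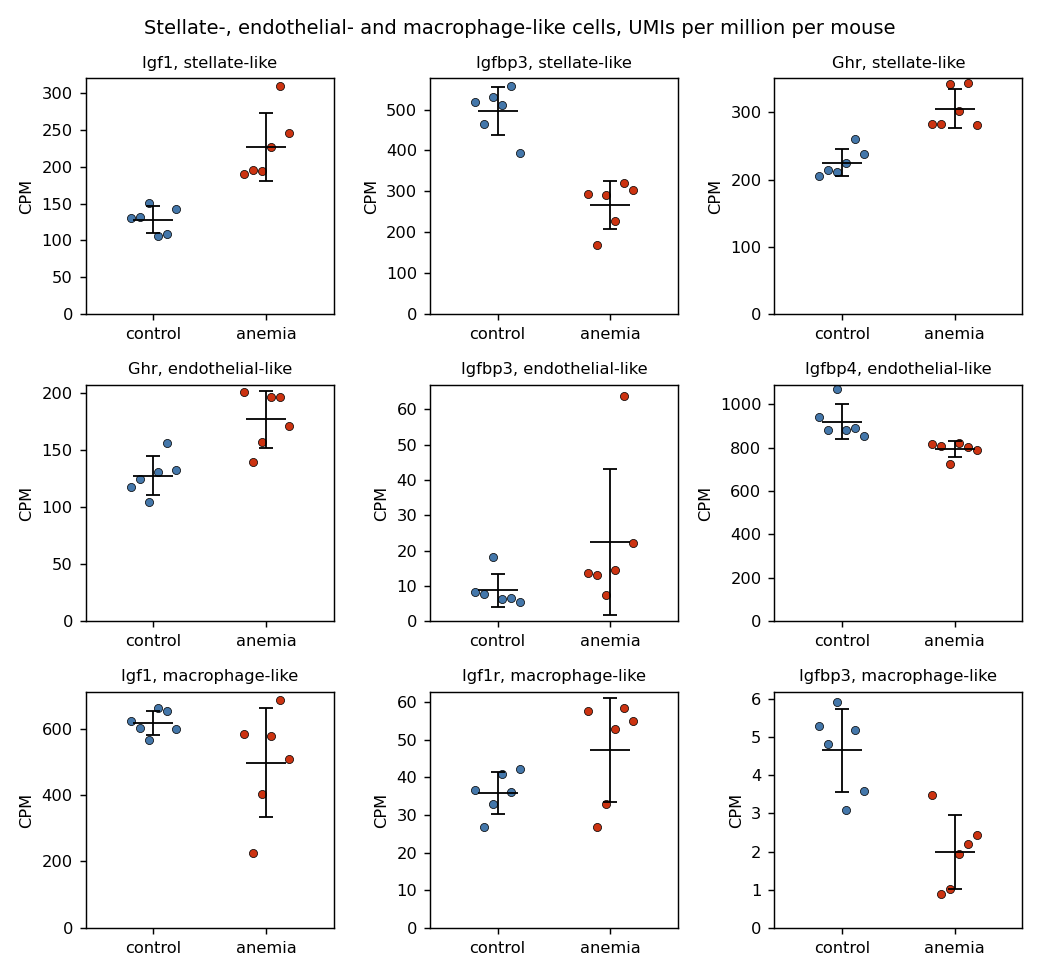
CPM per mouse in stellate-, endothelial- and macrophage-like cells (6 control and 6 anemic points per panel, mean and SD, axes from 0). Igf1, Igfbp3 and Ghr separate the groups in stellate-like cells, and 1 anemic mouse at 63.8 CPM stands above the rest for Igfbp3 in endothelial-like cells.

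Direct tests compared the change in hepatocyte-like cells with the change in another class, mouse by mouse, over 99 pairs of a gene and a class. For Ghr, the effect in hepatocyte-like cells minus that in endothelial-like cells was -1.66 on the log2(CPM + 1) scale, and against stellate-like and cholangiocyte-like cells it was -1.63 and -1.84 (exact two-sided permutation tests, adjusted p = 0.0195 in each). These were whole-class effects. Within single clusters Ghr was -0.04 to -0.38 in hepatocyte-like and 0.32 and 0.25 in stellate-like cells, with no call. In cholangiocyte-like cells Ghr was not called (0.60, edgeR, adjusted p = 0.404). Its control mean there was 73.3 CPM, against 39.2 CPM predicted from hepatocyte RNA. For Igf1, hepatocyte-like minus stellate-like was -1.09, and for Igfbp3, hepatocyte-like minus endothelial-like was -1.75 (exact permutation tests, adjusted p = 0.0195 in each). Igfbp3 was sparse in hepatocyte-like cells, at 2.02 CPM, and not called there (-0.53, edgeR, adjusted p = 0.337). Its endothelial-like call was lost under 8 of 25 alternatives. The Igf1 difference did not pass at the coarser clustering (exact permutation test, adjusted p = 0.176). For Igfals, hepatocyte-like minus macrophage-like, endothelial-like and stellate-like was -0.97, -1.02 and -1.12 (exact permutation tests, adjusted p = 0.0195 in each). In all, 16 of the 99 pairs in 6 genes passed, and the smallest p that the 6 against 6 design allows is 0.00216. With called doublets left out, the differences from stellate-like and cholangiocyte-like cells and that for Igfbp3 could not be compared.

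**Figure D5:**
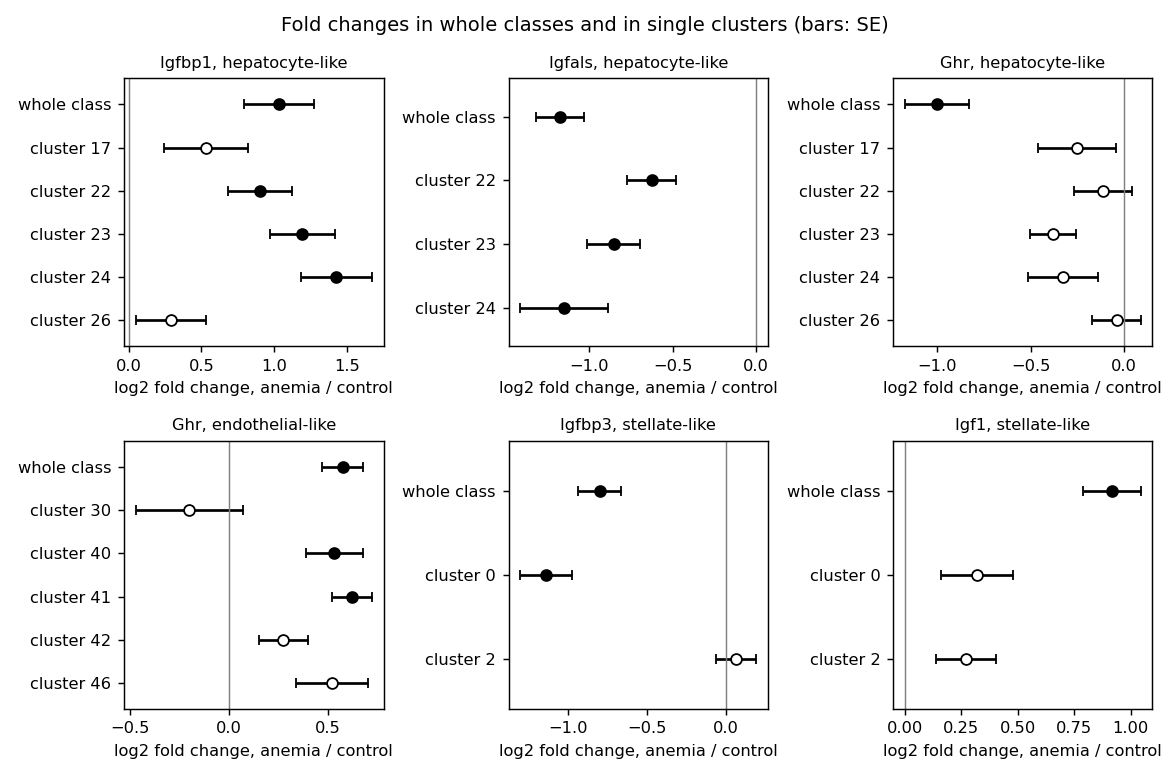
Log2 fold change (anemia over control, edgeR) of 6 gene and class pairs in the whole class and in single clusters, with bars of 1 SE, filled points for adjusted p under 0.05 and a line at 0. Igfbp1 and Igfals keep their direction in each hepatocyte-like cluster shown, while Ghr is -1.002 in the class and between -0.04 and -0.38 in its clusters.

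In the 10 other classes, 72 member tests were made, and 60 of the log2 fold changes were below 0, where the median over all genes was -0.0032 to 0.024. The summed hepatocyte RNA had a lower mean in anemic mice in 9 of these 10 classes, without overlap between the groups in 5, for example 7175 and 2882 CPM in erythroid-like, 5969 and 2473 CPM in T-like and 5825 and 2838 CPM in monocyte-like cells, and 6382 and 6507 CPM in cholangiocyte-like cells. Its part in these directions was not tested. The share of all genes called in 9 of these classes was 0.0205 to 1.48%, and no member was called in them. In B-like cells, with 4.1% of 12693 genes called, Igf1 (-0.94, edgeR, adjusted p = 0.0358), Igfbp4 (-0.80, adjusted p = 0.0235) and Igfals (-0.93, adjusted p = 0.0307) fell. Summed hepatocyte RNA in B-like cells was 4804 to 6928 CPM in controls and 1067 to 4201 CPM in anemic mice, and the level of none of these 3 genes there was above the hepatocyte-RNA background. Igfals came close to that limit, with 12 mice above the prediction and a mean of 2.97 times it. Without anemic mice 2 and 3 the 3 genes were at -0.64, -0.56 and -0.77 and not called (edgeR, adjusted p = 0.117, 0.0878 and 0.101). In all, the call was lost under 10 of 25 alternatives for Igf1, 6 of 25 for Igfbp4 and 8 of 24 for Igfals. For Igf1 and Igfals these included cells with less hepatocyte RNA and sex as a covariate. In neutrophil-like cells, the class with the most Igf1r, that gene had 529, 742 and 828 CPM in controls and 377, 637 and 793 CPM in anemic mice, and its log2 fold change was -0.18 ± 0.154 (edgeR, adjusted p = 0.641).

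Over all kept cells, which need no naming of clusters, Igfals fell, from 5.79 to 9.62 CPM in control to 2.38 to 5.52 CPM in anemic mice with no overlap. Its log2 fold change was -0.71 ± 0.171 (edgeR, adjusted p = 0.0282), beside 6.92% of 21191 genes called, and no other member was called. This call was lost at a mitochondrial share of at most 10% (-0.47, adjusted p = 0.0665), with sex as a covariate (-0.73, adjusted p = 0.0571) and without control mouse 1, 4, 5 or 6 (-0.73 to -0.69, adjusted p = 0.0571 to 0.0648). By their sex-linked RNA, 2 of the 6 control and 4 of the 6 anemic mice were male. Igfbp1 had 0.94 ± 0.404 (adjusted p = 0.180), and 1.31 (adjusted p = 0.0220) without anemic mice 2 and 3. In this sum, fewer cells of a type and less RNA per cell cannot be told apart.

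Other genes of the pathway were read in lists that describe binding and release, receptor signaling, growth hormone signaling, imprinted and fetal growth genes, and genes repressed by insulin or raised by fasting. Over all genes in hepatocyte-like cells, 24.3% were called lower and 21.6% higher. In this class, 9 of 19 receptor signaling genes tested were called lower and 1 higher, at a median log2 fold change of -0.36 against -0.06 over all genes. Irs1, an adaptor that docks to the insulin and IGF1 receptors, went from 24.7 to 43.1 CPM in control to 4.56 to 12.9 CPM in anemic mice (log2 fold change -1.69, edgeR, adjusted p = 3.2e-06). Rptor, the mTOR complex 1 scaffold, fell by 1.09 and the insulin receptor Insr by 0.98 on the log2 scale, with no overlap between groups in either. Akt1, the kinase downstream, rose by 0.38. These class-wide values carry the change in cluster shares given above for Ghr. In each cluster fitted alone, 162 to 556 of all genes were called, against 5255 over the class. Of the 9 genes called lower, Irs1 alone was also called in a single cluster (-1.41 to -1.02 in 2), whereas Rptor was -0.12 in the 1 cluster that could be tested, Insr -0.41 to 0.025, and Akt1 -0.27 to 0.16.

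Of 12 growth hormone signaling genes in hepatocyte-like cells, 7 fell and none rose (edgeR, with 5 not called), where 24.3% of all genes fell. Prlr, the prolactin receptor, went from 352 to 560 CPM to 118 to 237 CPM (log2 fold change -1.06, adjusted p = 9.3e-05). The feedback inhibitors Socs3 and Cish each fell by 0.74, with overlapping groups. In single clusters, of these 7 genes Socs2 was the 1 called, in all 5 clusters (-1.23 to -0.58), while Prlr was -0.43 to 0.74 and not called. Of 5 other binding and release genes tested, Igf2r, the receptor that clears IGF2, fell by 0.96 and Igfbp7 by 0.52. Of 9 imprinted and fetal growth genes, 3 fell. Meg3, a maternally expressed long noncoding RNA, went from 60.3 to 119 CPM to 4.38 to 14.4 CPM (log2 fold change -3.01, adjusted p = 4.3e-07), Peg3 fell by 0.74 and the growth inhibitor Cdkn1c by 0.41. Cdkn1c was called lower in all 5 clusters (-1.15 to -0.88) and Meg3 in the 1 where it could be tested (-2.11), and Peg3 (-0.40 to 0.46) and Igf2r (-0.12 and -0.058 in 2) in none.

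Igfbp1 belongs by its known control with the insulin-repressed and fasting genes. Of the 12 on that list, 4 fell and 1 rose in hepatocyte-like cells, with a median log2 fold change of -0.29. Pdk4, which restrains pyruvate oxidation, went from 117 to 227 CPM to 43.2 to 71.7 CPM (-1.66, edgeR, adjusted p = 2.0e-06), Cpt1a, which admits fatty acids to mitochondria, fell by 0.92 and Trib1 by 0.44. Tat, a glucocorticoid-responsive enzyme of tyrosine breakdown, rose by 0.59 (adjusted p = 0.0121). Tat and Cpt1a were each called in 2 of 5 clusters in the same direction, Pdk4 in 1 of 3 (-0.64 to 0.069) and Trib1 in none.

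In stellate-like cells, 4 of 11 binding and release genes rose and none fell, at a median log2 fold change of 0.77 against 0.00 over all genes, of which 7.17% were called higher and 6.15% lower. Pappa, the protease that frees IGF from IGFBP4, had 25.1 to 44.0 CPM in controls and 53.9 to 120 CPM in anemic mice without overlap (1.38, edgeR, adjusted p = 3.8e-04). Stc2, which inhibits that protease, rose by 1.35 and Igf2r by 0.77. Of 19 receptor signaling genes, 4 rose, among them Irs2 (0.46), Irs1 (0.39) and Pik3r1 (0.37), and Pdpk1 fell by 0.77. Of 12 growth hormone signaling genes 3 rose, Socs3 (0.80), Jak2 (0.50) and Socs2 (0.43). Among 14 imprinted and fetal growth genes, Zim1 (1.24), Peg3 (0.69) and Meg3 (0.57) rose while Hmga2 fell by 1.40 and Mest by 0.42. None of 11 fasting genes was called there. The class went toward its Mfap4-led cluster, and 7 of the 17 calls on these lists were met again in a cluster. Of all genes, 33 of 13546 were called in the Mfap4-led and 877 of 13627 in the Colec11-led cluster. Stc2 was called in both (1.14 and 1.59), Jak2, Socs2, Socs3, Pik3r1, Pdpk1 and Hmga2 in 1 each. Pappa was 0.50 in the 1 cluster that could be tested, Igf2r 0.13 and 0.20, Irs1 -0.32 and 0.10, Zim1 -1.25 and 0.61, Peg3 -0.16 and 0.35, and Meg3 -0.26 and 0.078, none called. Htra1, a binding and release gene that also rose over the class (0.57), was below 0 in both clusters (-0.53 and -0.22).

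In endothelial-like cells, 3 of 11 binding and release genes rose, where 7.75% of all genes were called higher and 10.6% lower. Stc2 had 10.6 to 16.5 CPM in controls and 18.5 to 40.7 CPM in anemic mice (1.42, edgeR, adjusted p = 1.4e-04), Igfbp5 rose by 1.05 and Adamts1 by 0.50. The 12 growth hormone signaling genes split, with Socs3 (1.51), Socs2 (1.48) and Jak2, the kinase bound to the growth hormone receptor (0.93), higher, and Bcl6 (-0.90), Cux2 (-0.76) and Stat5a (-0.39) lower. Of 19 receptor signaling genes Insr rose by 0.69, Pdpk1 fell by 0.96 and Mtor by 0.26. Angptl4, an inhibitor of lipoprotein lipase that responds to fasting and low oxygen, had 4.98 to 8.46 CPM in controls and 27.5 to 43.8 CPM in anemic mice (2.46, adjusted p = 4.1e-07). Pdk4 (0.62) and Trib1 (0.32) rose there too and Cpt1a fell by 0.30, and Hmga2 fell by 0.83. In macrophage-like cells Socs3 rose by 1.03 (adjusted p = 0.0149), and no other gene of these 5 lists was called. That rise was not called in any of 3 clusters (0.46 to 0.59). In endothelial-like clusters Stc2 and Angptl4 were called in all 4 where they were tested, Socs3 in all 5, and Igfbp5 in none of 4 (0.46 to 1.58), and Trib1 (-0.70 to 0.42), Pdk4 (-0.20 to 0.67) and Adamts1 (-0.27 to 0.52) differed in sign between clusters.

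The RNA of other cell types moved in the same comparisons. All 5 erythroid genes rose in hepatocyte-, endothelial- and stellate-like cells. Of the 12 hepatocyte genes, 6 fell in endothelial-like and 3 in stellate-like cells, while Apoc3 rose in both and in hepatocyte-like cells by 2.40. The erythroid sum was 812 to 3107 CPM in controls and 3711 to 8512 CPM in anemic endothelial-like cells, and 992 to 3370 CPM and 4462 to 14152 CPM in stellate-like cells. Its part in the results was not tested.

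The genes whose mean levels over the 14 classes were most like each member are given as a description, by Pearson's r of mean log2(CPM + 1). For Igf1 they were C2, Thrb and Enpp2 (0.961, 0.956 and 0.936), for Igf2 Gcgr, H19 and Slc47a1 (0.980, 0.973 and 0.968), for Igf1r Rps6ka2, Nim1k and Ckap4 (0.897, 0.887 and 0.869) and for Ghr Tfpi2, Cyp2d22 and Tpd52l1 (0.974, 0.964 and 0.963). H19 lies 72.6 kb from Igf2 on chromosome 7. Igfbp1 was most like Apoa2, Mbl2 and Cyp2a12 (0.997, 0.996 and 0.996), Igfbp2 like Apoc4, Apoa1 and Fgl1 (each 0.996) and Igfals like Klkb1, Pnliprp1 and Aldh1l1 (0.987, 0.953 and 0.952). Igfbp3 was most like Tnxb, Slc10a6 and Klhl29 (0.990, 0.989 and 0.987) and Igfbp4 like Iigp1, Lepr and Angptl4 (0.948, 0.943 and 0.942). The classes share libraries and hepatocyte RNA.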

How the data were processed

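Livers of 12 pups (6 control, 6 anemic, separate mice whose litters were not labelled) were dissociated, and 1 droplet library was made per mouse with a 3' kit, whose version differs between the labels and the study's methods. Values are UMI counts per gene and barcode as deposited by the authors in filtered matrices, made with Cell Ranger 7.0.0 per the file headers, with mm10 and Seurat named in the submitters' processing notes. Intron counting and strand use are not given in the sources used here. No column of other samples was present.

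Barcodes were kept if they held 500 to 50000 UMIs of which at most 50% were mitochondrial. Cells were clustered in scanpy 1.11.5 (2000 variable genes, without the 80 members and pathway genes, 20 components, 20 neighbours, Leiden resolution 2) and clusters named from marker lists, with at least 3 markers raised over 2-fold. Further conditions were added after the clusters were seen, namely no tie between classes, no smooth-muscle genes leading, and at most 85% called doublets. Doublets, 11.3 to 16.9% per library by simulated neighbours, were kept. Of the stellate-like and cholangiocyte-like cells, 65.2% and 82.3% were called. Libraries shared 5031 barcode sequences, 4.53 to 5.44% of each library's barcodes.

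UMIs were summed per mouse and class and tested with edgeR 4.0.16 (quasi-likelihood, TMM factors, mean of at least 5 UMIs, no mitochondrial or ribosomal protein genes), with Benjamini-Hochberg adjustment over all genes of a class. A gene was called at an adjusted p under 0.05. Levels and class effects were compared on log2(CPM + 1) with exact permutation tests over mice (numpy 2.4.6). The fits were run in R 4.3.3, and UMIs were summed with scipy 1.17.1. Members, lists and promoter letters were chosen with earlier results of these data known. All 9 members are named in the text, with at most 3 called genes per list, class and direction, and the 3 genes most like each member. Socs2 in hepatocyte-like and Htra1 in stellate-like cells were named in addition, for their values in single clusters. The fits were tested on simulated data. Alternatives changed the normalization, tool (DESeq2 1.42.0, limma 3.58.1), filters, cells, clusters, covariates and mice. P-values set a difference between groups, or a within-mouse difference between classes, against its spread over mice.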

Additional observations from a re-analysis of the deposited data

Results flagged for a closer look

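In 9 of 92 groups of 6 mice, 1 mouse lay far from the other 5 by Dixon's ratio of gap to range, where chance gives about 1 in 20 groups. In hepatocyte-like cells these were Igf1 in anemic mouse 2 (517 CPM, next 669 CPM) and Igfbp1 in control mouse 6 (1041 CPM, next 571 CPM). In stellate-like cells they were Igf2 in anemic mouse 6 (231 CPM, next 119 CPM) and Igfbp4 in control mouse 3 (889 CPM, next 712 CPM). In endothelial-like cells they were Igfbp3 in control mouse 3 (18.1 CPM, next 8.28 CPM) and in anemic mouse 5 (63.8 CPM, next 22.3 CPM), and Igfbp4 in anemic mouse 3 (723 CPM, next 790 CPM). Ghr in macrophage-like cells of control mouse 5 stood at 27.9 CPM (next 14.9 CPM), and Igf2 over all kept cells of control mouse 2 at 55.4 CPM (next 84.0 CPM).

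The change with anemia differed between hepatocyte-like cells and another class for 16 pairs of a gene and a class, each by an exact two-sided permutation test adjusted over 99 pairs. The values are log2 effects in hepatocyte-like cells minus those in the other class. For Ghr they were -1.84 against cholangiocyte-like, -1.66 against endothelial-like and -1.63 against stellate-like cells, and hepatocyte-like cells fell by 1.19 while the 3 other classes had 0.64, 0.47 and 0.44. These are whole-class values. Ghr was not called in any single hepatocyte-like cluster (-0.04 to -0.38) or stellate-like cluster (0.32 and 0.25). For Igf1 the difference from stellate-like cells was -1.09. For Igfbp3, sparse in hepatocyte-like cells at 2.02 CPM, the difference from endothelial-like cells was -1.75. For Igfbp1 it was 0.82 against B-like and 1.23 against monocyte-like cells, where its level was at the hepatocyte-RNA background. For Igfbp4 it was -0.37 against T-like, -0.27 against endothelial-like and -0.29 against pre-B-like cells, and with TMM scaling these did not pass (exact permutation tests, adjusted p = 0.119, 0.0982 and 0.403). For Igfals it was -0.52 against B-like, -0.84 against NK-like, -1.37 against dendritic-like, -1.02 against endothelial-like, -0.97 against macrophage-like and -1.12 against stellate-like cells. With cells of at most 10% mitochondrial UMIs, the differences from B-like cells for Igfbp1 and Igfals did not pass (exact permutation tests, adjusted p = 0.0543 in each), nor did those for Igfbp4 (adjusted p = 0.113, 0.113 and 0.153). Igfbp4 against T-like cells also did not pass at the coarser clustering (exact permutation test, adjusted p = 0.202). The difference for Igfals in B-like cells did not pass with TMM scaling (exact permutation test, adjusted p = 0.155), and that for Igf1 did not pass at the coarser clustering (exact permutation test, adjusted p = 0.176). With called doublets left out, the differences from stellate-like and cholangiocyte-like cells and that for Igfbp3 could not be compared. The Igfbp3 difference also had no comparison with cells of at most 10% mitochondrial UMIs.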

How the results depend on the processing

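Of the 14 calls of a member in a class or over all cells, in 6 genes, Ghr in hepatocyte-like and endothelial-like, Igfals and Igfbp1 in hepatocyte-like and Igfbp3 in stellate-like cells stayed called under all 24 or 25 alternatives to the whole class. Igf1 and Ghr in stellate-like cells lost it at the coarser clustering (0.34 and 0.33), where the Mfap4-led cells were not in the class, and Igfbp4 in hepatocyte-like cells under 4 alternatives.

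Numbers of members called moved as follows, with ranges for 1 mouse left out. In hepatocyte-like cells 4 became 0 in clusters 17 and 26 alone and 2 in clusters 22, 23 and 24, and 4 to 5 with 1 mouse left out. Over all genes, 162 of 5286 and 246 of 5281 were called in clusters 17 and 26. In clusters 22, 23 and 24, 466 of 9563, 556 of 7047 and 366 of 5800 were called. In stellate-like cells 3 became 1 in cluster 0 alone, 0 in cluster 2 alone and 1 at the coarser clustering, 4 without anemic mice 2 and 3, and 3 to 4 with 1 mouse left out. Over all genes, 877 of 13627 were called in cluster 0 and 33 of 13546 in cluster 2. In endothelial-like cells 2 became 4 without anemic mice 2 and 3 (adding Igf2, 0.53, and Igfbp1, 0.75), 0 in cluster 42 alone, 1 in cluster 46 alone, 1 with sex as a covariate (Igfbp3 lost), and 1 to 2 with 1 mouse left out. The levels of Igf2 and Igfbp1 in this class were not above the hepatocyte-RNA background. In clusters 42 and 46, 211 of 12565 and 1076 of 12047 genes were called. In macrophage-like cells 1 became 0 in cells with less hepatocyte RNA, 0 without cluster 5, 0 in clusters 5, 6 and 7 alone, 0 with a mean of at least 50 UMIs, 2 with the joint voom model, and 0 to 2 with 1 mouse left out. In clusters 5, 6 and 7, 0 of 11209, 19 of 7105 and 43 of 8473 genes were called. Over all kept cells 1 became 2 without anemic mice 2 and 3, 0 at a mitochondrial share of at most 10%, 0 with sex as a covariate, and 0 to 1 with 1 mouse left out. In the other classes 3 became 5 with DESeq2, 6 with voom, 17 without a filter on low counts, 0 without anemic mice 2 and 3, 1 with sex as a covariate, and 0 to 4 with 1 mouse left out. The 16 class differences became 37 with a pseudocount of 10, 39 at the coarser clustering, and 10 to 22 with 1 mouse left out. The causes were not tested.

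The labels give replicate numbers no meaning, and the mice were not taken as paired, since not every same-numbered pair deviated together. The correlations were -0.20 to 0.47, over 0.1 for 4 of 6 numbers in macrophage-like and in endothelial-like cells, and numbers 1 and 4 were best with their own number in both and in hepatocyte-like cells. With the replicate number as a block, members called became 1 in endothelial-like (Igfbp3 lost), 2 in macrophage-like (Igf1r gained) and 6 in the other classes (Igf1 in dendritic-like and monocyte-like and Igfbp2 in monocyte-like cells gained), and Igfbp2 in hepatocyte-like and Igf2 in stellate-like cells were also called.

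Without TMM factors the median of all genes shifted by -0.20 in hepatocyte-like, -0.31 in erythroid-like and -0.24 over all kept cells (log2), and the share of calls that were rises went from 47.0% to 26.4% in hepatocyte-like, 42.2% to 23.2% in endothelial-like, 53.8% to 35.0% in stellate-like, 47.6% to 37.7% in monocyte-like, 93.0% to 18.2% in erythroid-like and 45.8% to 8.9% over all kept cells.

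Fold changes that turned direction were uncalled in the whole class, apart from Igfbp3 in stellate-like, Igfbp4 in hepatocyte-like and Ghr in endothelial-like cells, which turned in single clusters without a call. Igf1 in hepatocyte-like cells was 0.0043 without anemic mice 2 and 3, 0.081 at the coarser clustering and 0.066, 0.015, 0.032, 0.034 and 0.056 in clusters 17, 22, 23, 24 and 26. Igf2 there was 0.15, 0.044, 0.36, 0.16 and 0.16 without both mice, at the coarser clustering and in clusters 22, 23 and 24, and 0.0053 with voom. Igf1r there was 0.22 without called doublets and 0.25 in cluster 22, Igfbp2 0.084 in cluster 24, and Igfbp4 0.010 and 0.41 in clusters 17 and 26. In stellate-like cells Igf2 was -0.11 in cluster 0 and -0.084 at the coarser clustering, Igfbp2 -0.14 without called doublets and -0.057 in cluster 2, Igfbp3 0.068 in cluster 2, and Igfbp4 0.35 without called doublets. Igfals there was 0.044 without both mice, 0.094 in cells with less hepatocyte RNA, 0.026 in cluster 0, 0.042 at the coarser clustering, and -0.25 to 0.017 with 1 mouse left out. In endothelial-like cells Igf1 was 0.21 without both mice and with voom, 0.091 in cells with less hepatocyte RNA, 0.13, 0.093 and 0.39 in clusters 30, 41 and 46, and -0.13 to 0.093 with 1 mouse left out. Igf2 there was -0.61, -0.13, -0.15 and -0.43 in clusters 30, 40, 41 and 46, and in cluster 30 Igf1r was -0.80 (called), Igfbp4 0.25 and Ghr -0.20. In macrophage-like cells Igf1 was 0.073 and Igfbp1 -0.30 in cluster 5. Over all kept cells Igf2 was 0.43 without both mice, 0.35 at a mitochondrial share of at most 10% and -0.25 to 0.21 with 1 mouse left out, Ghr 0.15 and 0.16 in the first pair of settings, Igfbp2 0.055 without both mice, and Igf1r -0.065 without TMM factors. Single clusters, both mice and cluster 5 left out were chosen after seeing the data. Depth limits Igf1r and Igfbp3 in hepatocyte-like cells, with 305 and 77 UMIs over 12 mice.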
